A study of Homo sapiens with 6 samples.

Results

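This account describes 10 genes that write, read or erase DNA methylation or remove methyl groups from lysine 4 of histone H3 (H3K4), measured by RNA sequencing in 293T cells. The genes were listed by name, under a rule that uses no measured value but was written with earlier results of these data known: the DNA methyltransferases DNMT1, DNMT3A and DNMT3B, their partner UHRF1, the dioxygenases TET1, TET2 and TET3, and the H3K4 demethylases KDM1A, KDM5A and KDM5B. All 10 were found among the 60669 genes in the count files, and all 10 passed the filter on low counts. The 293T line is a transformed human embryonic kidney line that carries the SV40 large T antigen. Its cells were compared in 3 groups of 2 libraries each: MLL2 KO, in which MLL2 was knocked out with CRISPR/Cas9, PRMT1 KD, in which PRMT1 was depleted with a short hairpin RNA (shRNA), and wild-type control cells. The labels list no further treatment for any group, and call the libraries of a group biological replicates. They do not say whether the knockout is 1 clone, or whether the knockout and control cells also carried a hairpin. The p-values weigh the spread between libraries of a group, which may be technical in part. The 3 groups share 1 estimate of it per gene, which is drawn towards the spread of other genes. A p-value for the knockout thus also carries the spread of the knockdown libraries.

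DNA methylation in mammals sits mostly on the cytosine of CpG dinucleotides. DNMT3A and DNMT3B place it on unmethylated DNA, and DNMT1, brought to replicating DNA by UHRF1, copies it onto the new strand. TET enzymes oxidise methylcytosine, which leads to its loss. The mark and H3K4 methylation tend to exclude each other, because the ADD domain of the DNMT3 enzymes binds the H3 tail only where lysine 4 carries no methyl group. MLL2 is an H3K4 methyltransferase, KDM1A and the KDM5 enzymes remove that mark, and PRMT1 is the main enzyme that places asymmetric dimethylation on arginines. MLL2 is an older name of KMT2B and also of KMT2D, and which of them was targeted is not said in the labels.

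The targeted genes were read first. PRMT1 had 406 and 425 CPM in the MLL2 KO libraries, 38.2 and 34.9 CPM in the PRMT1 KD libraries and 306 and 319 CPM in the control libraries. The knockdown libraries lay far below all others, with a log2 fold change against control of -3.10 ± 0.09 (SE), and in the knockout PRMT1 was higher than control at 0.41 ± 0.08. KMT2B had 7.12 and 7.36 CPM in the MLL2 KO libraries, 13.4 and 26.7 CPM in the PRMT1 KD libraries and 6.74 and 7.53 CPM in the control libraries. KMT2D had 20.8 and 24.2 CPM in the MLL2 KO libraries, 37.8 and 95.5 CPM in the PRMT1 KD libraries and 22.5 and 17.0 CPM in the control libraries. In the knockdown both were higher than control, at 1.49 ± 0.24 for KMT2B and 1.76 ± 0.25 for KMT2D. The 2 knockdown libraries differed by 1.995-fold for KMT2B and 2.529-fold for KMT2D. Neither gene was lower in the knockout, where the log2 fold change was 0.02 ± 0.25 for KMT2B and 0.19 ± 0.26 for KMT2D, so the knockout could not be checked from gene counts, and a small deletion need not change them. CPM is counts per 1000000 counts of the library, after scaling with trimmed mean of M-values (TMM) factors. The libraries held 20061471 to 22351532 counts. Of 5 marker genes written down for the 293T line, NEFL, NEFM, INA and LIN28B lay at 5.27 CPM or more in every library and PAX2 at 0.541 CPM or less. The sum of the 5 lay at 299 to 310 CPM in MLL2 KO, 258 to 269 CPM in PRMT1 KD and 621 to 626 CPM in control libraries. The sum over 8 markers of leukocytes, hepatocytes, endothelium and muscle lay at 0.294 to 1.48 CPM in MLL2 KO, 1.01 to 1.31 CPM in PRMT1 KD and 2.05 to 2.21 CPM in control libraries, with CD3E at 0 counts throughout. The lower sum lay mostly in NEFL, at 156 and 153 CPM in MLL2 KO, 56.6 and 53.3 CPM in PRMT1 KD and 347 and 352 CPM in control libraries, and in NEFM. LIN28B was not lower in the knockdown, at 121 and 112 CPM in MLL2 KO, 185 and 159.9 CPM in PRMT1 KD and 172 and 173 CPM in control libraries. The part of these markers in the results for the 10 genes was not tested.

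The promoters of 4 of the genes are shown because these are a pair whose transcripts are known to rise in S phase (DNMT1 and UHRF1) and the pair with the largest changes after PRMT1 knockdown among the 10 genes (DNMT3A and TET3). Sequences are from RefSeq on GRCh38.p14, 300 bases each, from 250 bases before to 50 bases after an annotated start, written 5′ to 3′ on the gene's strand. Capitals in the DNMT1 window at chr19:10194904-10195203 (minus strand) and the UHRF1 window at chr19:4909251-4909550 (plus strand) mark a match to the letters of an E2F motif, the sequence bound by the factors that drive S phase genes.
DNMT1: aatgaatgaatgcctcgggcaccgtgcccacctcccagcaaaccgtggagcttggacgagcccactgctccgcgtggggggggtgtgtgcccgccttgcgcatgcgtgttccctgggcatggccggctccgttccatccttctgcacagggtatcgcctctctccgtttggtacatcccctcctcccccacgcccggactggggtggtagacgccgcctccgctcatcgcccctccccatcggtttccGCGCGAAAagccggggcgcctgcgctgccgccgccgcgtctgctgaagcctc
UHRF1: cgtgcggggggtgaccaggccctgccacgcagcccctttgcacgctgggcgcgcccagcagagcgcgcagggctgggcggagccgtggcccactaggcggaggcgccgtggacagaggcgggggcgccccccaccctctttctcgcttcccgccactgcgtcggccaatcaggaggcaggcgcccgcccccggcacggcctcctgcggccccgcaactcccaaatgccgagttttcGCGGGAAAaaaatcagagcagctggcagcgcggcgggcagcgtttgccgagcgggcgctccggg
In the DNMT3A window at chr2:25341876-25342175 (minus strand) and the TET3 window at chr2:74002442-74002741 (plus strand) the capitals mark each CpG, the dinucleotide on which the encoded enzymes act.
DNMT3A: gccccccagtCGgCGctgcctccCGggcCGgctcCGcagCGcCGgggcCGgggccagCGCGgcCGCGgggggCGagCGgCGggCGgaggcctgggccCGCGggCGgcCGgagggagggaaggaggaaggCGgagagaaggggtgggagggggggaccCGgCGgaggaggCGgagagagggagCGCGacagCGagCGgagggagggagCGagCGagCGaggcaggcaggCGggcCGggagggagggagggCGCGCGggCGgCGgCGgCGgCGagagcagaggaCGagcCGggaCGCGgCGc
TET3: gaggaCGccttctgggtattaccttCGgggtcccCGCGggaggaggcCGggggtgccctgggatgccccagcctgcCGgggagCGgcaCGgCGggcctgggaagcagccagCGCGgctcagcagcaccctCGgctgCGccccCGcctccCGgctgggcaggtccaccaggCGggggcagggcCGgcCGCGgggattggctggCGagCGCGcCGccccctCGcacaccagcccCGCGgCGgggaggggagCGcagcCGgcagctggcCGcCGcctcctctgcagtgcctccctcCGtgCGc
The E2F search covered TTTCCCGC, TTTCGCGC, TTTGGCGC and TTTGCCGC on both strands. These letters were found in 3.315% of all 35116 RefSeq windows, and among the 21 windows of the 10 genes in the single DNMT1 window and in 2 of 3 UHRF1 windows. A match is a description of letters and no evidence of binding. The DNMT3A window shown holds 46 CpG and the TET3 window 33, against a median of 14 over all windows. The other DNMT3A windows hold 18 to 28 CpG, the other TET3 window 45, the UHRF1 windows 36 to 46, the DNMT1 window 30 and the TET1 windows 6 to 11. The KDM1A window holds 36 CpG, the KDM5B window 34 and the KDM5A window 20. The only DNMT3B window holds 3. That window and the 4 windows shown lie inside the GENCODE 34 span of their gene, downstream of its outermost annotated start. Counts per gene do not show which start was used.

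To compare genes with each other, counts were divided by exon length as well as by depth (CPM per kb of summed exon). The length covers all annotated exons of a gene, so orders and ratios between genes depend on the annotation. KDM1A, the demethylase subunit of the CoREST complex, was the most abundant of the 10 genes in every library. Its level was 70.8 ± 1.0 CPM per kb in MLL2 KO, 71.7 ± 3.4 in PRMT1 KD and 68.0 ± 1.9 in control cells (SD, n = 2 each). In control cells the order was KDM1A, DNMT1, UHRF1, KDM5A, DNMT3B, KDM5B, TET1, DNMT3A, TET2 and TET3, and the ranges of no neighbours in this order overlapped. TET3, at 1.22 ± 0.038 CPM per kb in control cells, was the least abundant there and in the knockout. In MLL2 KO cells UHRF1 stood above DNMT1, and TET2 above DNMT3A. In PRMT1 KD cells UHRF1 again stood above DNMT1, TET1 passed KDM5B, TET3 and TET2 overlapped each other, and DNMT3A was last at 1.15 ± 0.17 CPM per kb. The plot of levels by library shows this order.

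**Figure D1:**
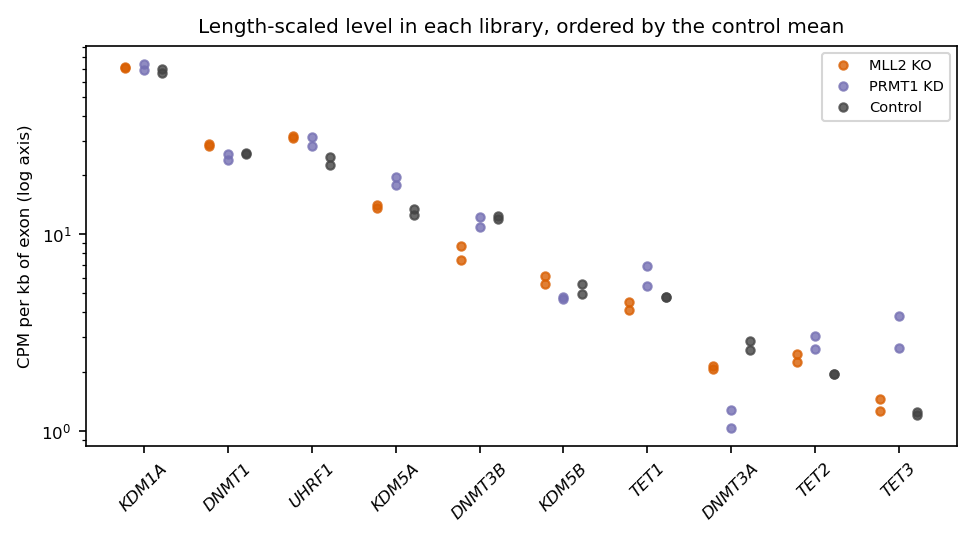
Levels of the 10 genes in CPM per kb of exon (log axis), 1 point per library, with MLL2 KO, PRMT1 KD and control side by side for each gene and genes ordered by the control mean. KDM1A is highest in all 6 libraries, and DNMT3A and TET3 exchange places between PRMT1 KD and control cells.

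In MLL2 KO cells, 1 of the 10 genes rose and 1 fell against control, where 22.4% of the 17575 tested genes passed the same threshold (10.3% higher and 12.1% lower). UHRF1 rose and DNMT3B fell. The threshold throughout is an adjusted p under 0.05 in edgeR's quasi-likelihood test, adjusted over all tested genes by the Benjamini-Hochberg method. In PRMT1 KD cells, 5 genes rose (TET1, TET2, TET3, UHRF1 and KDM5A) and 1 fell (DNMT3A), where 47.4% of all genes passed, 22.2% higher and 25.3% lower. The median log2 fold change of the 10 genes was 0.11 in the knockout and 0.20 in the knockdown, beside -0.01 and -0.04 over all genes. Both comparisons use the same control libraries, so their values are given side by side and are not independent. In bulk RNA, fewer cells of a kind and less RNA per cell cannot be told apart.

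**Figure D2:**
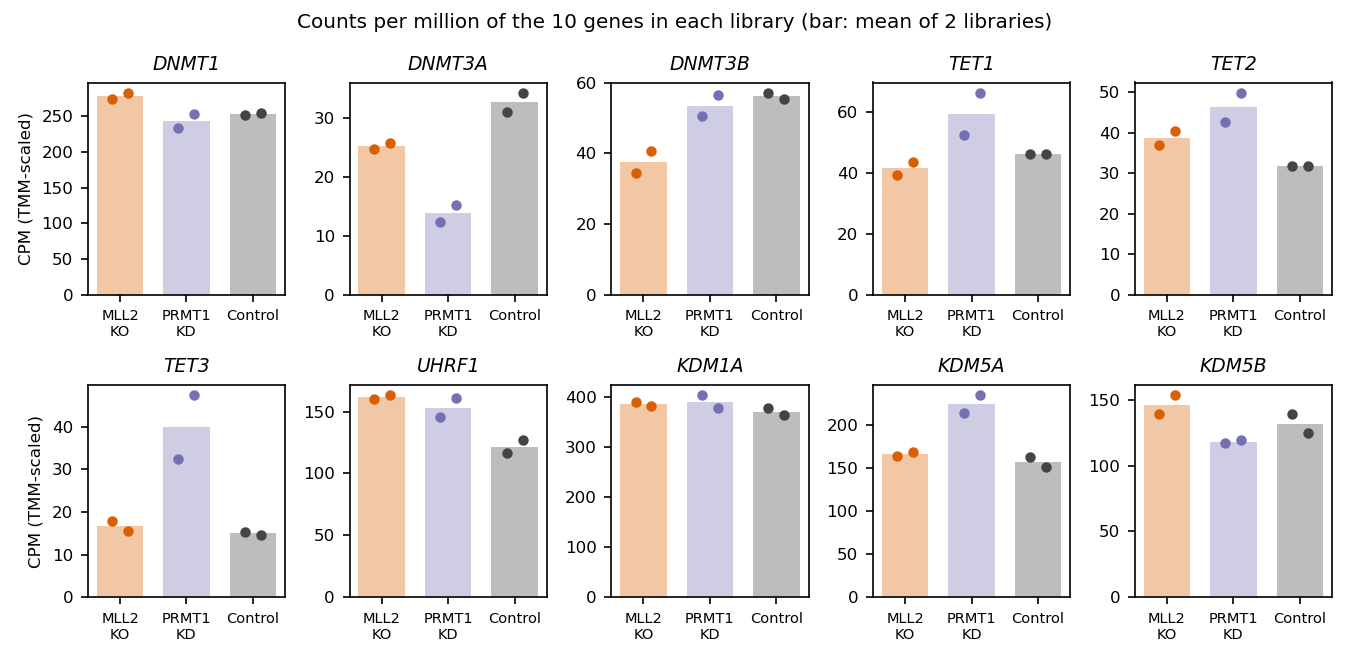
CPM of each of the 10 genes on linear axes that start at 0, with 1 point per library and a bar at the mean of 2 libraries for MLL2 KO, PRMT1 KD and control. The lowest DNMT3A points and the highest TET3 points are those of PRMT1 KD, and the lowest DNMT3B points are those of MLL2 KO.

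Of the de novo methyltransferases, DNMT3A fell in PRMT1 KD cells and DNMT3B fell in MLL2 KO cells. DNMT3A, which methylates CpG throughout the genome, had 24.7 and 25.8 CPM in the MLL2 KO libraries, 12.4 and 15.3 CPM in the PRMT1 KD libraries and 31.0 and 34.3 CPM in the control libraries. The 3 groups did not overlap: PRMT1 KD was lowest and MLL2 KO lay between it and control. The log2 fold change of DNMT3A in PRMT1 KD cells was -1.23 ± 0.14 (SE), a 2.35-fold lower level with an adjusted p of 3.58e-07 by edgeR's quasi-likelihood test. It remained between -1.43 and -1.10 when exon length was modelled or any library was left out. The knockout value for DNMT3A was -0.37 ± 0.13 with an adjusted p of 0.051 by the same edgeR test, just short of the threshold. This call depended on the settings: 7 of 15 alternatives passed it, among them the fit of only the 2 groups compared, with an adjusted p of 0.0134.

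DNMT3B, which methylates centromeric repeats and gene bodies among other targets, had 34.3 and 40.6 CPM in the MLL2 KO libraries, 50.5 and 56.6 CPM in the PRMT1 KD libraries and 57.2 and 55.4 CPM in the control libraries. Here the knockout stood apart, with both libraries below all 4 others, and the knockdown overlapped control. The log2 fold change was -0.59 ± 0.11 in MLL2 KO cells, or 0.665 times the control level, with an adjusted p of 6.04e-04 by edgeR's quasi-likelihood test, and it passed under all 15 alternatives. In PRMT1 KD cells the value was -0.07 ± 0.11, with a 95% interval of -0.30 to 0.15 and an adjusted p of 0.616. The ratio of DNMT3B to DNMT3A, each per kb of exon, was 3.61 and 4.09 in MLL2 KO, 10.6 and 9.60 in PRMT1 KD and 4.80 and 4.18 in control libraries. The balance of these enzymes at the RNA level was thus further towards DNMT3B in both knockdown libraries than in any other. DNMT3L, the catalytically inactive partner of the DNMT3 enzymes, had 0 counts in all 6 libraries, where 3 counts would be 0.132 to 0.150 CPM.

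The maintenance pair showed a change in UHRF1 and no call for DNMT1. DNMT1, the maintenance methyltransferase, had 275 and 283 CPM in the MLL2 KO libraries, 234 and 253 CPM in the PRMT1 KD libraries and 252 and 255 CPM in the control libraries. The knockout libraries were the highest and the knockdown overlapped control. The log2 fold changes of DNMT1 were 0.14 ± 0.08 in MLL2 KO cells (adjusted p = 0.236, edgeR's quasi-likelihood test) and -0.06 ± 0.08 in PRMT1 KD cells (adjusted p = 0.570), with 95% intervals of -0.03 to 0.30 and -0.23 to 0.11. The knockout value passed under 4 of 15 alternatives, and the knockdown value under 1, with exon length modelled, where it was -0.20 with an adjusted p of 0.03 by edgeR. A small part of DNMT1's exons, 83 of 9796 nt, overlaps S1PR2 on the same strand.

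UHRF1, a ubiquitin ligase that binds hemimethylated CpG, had 160.4 and 163 CPM in the MLL2 KO libraries, 145 and 161 CPM in the PRMT1 KD libraries and 117 and 127 CPM in the control libraries. All libraries of both perturbed groups lay above both control libraries. UHRF1 had a log2 fold change of 0.41 ± 0.09 in MLL2 KO cells, 1.33-fold, with an adjusted p of 0.00166 by edgeR's quasi-likelihood test. In PRMT1 KD cells it was 0.33 ± 0.09, 1.26-fold, with an adjusted p of 0.00324. Both calls rested on the first control library: without it the UHRF1 values were 0.35 (adjusted p = 0.0601, edgeR) in the knockout and 0.27 (adjusted p = 0.0914, edgeR) in the knockdown. The ratio of UHRF1 to DNMT1 per kb was 1.11 and 1.10 in MLL2 KO, 1.18 and 1.21 in PRMT1 KD and 0.881 and 0.948 in control libraries. Per kb of summed exon, UHRF1 thus stood above DNMT1 in the perturbed cells and below it in control cells. That crossing depends on the annotated exon lengths, 9796 nt for DNMT1 and 5145 nt for UHRF1. In CPM, without division by length, DNMT1 stood above UHRF1 in every library.

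**Figure D3:**
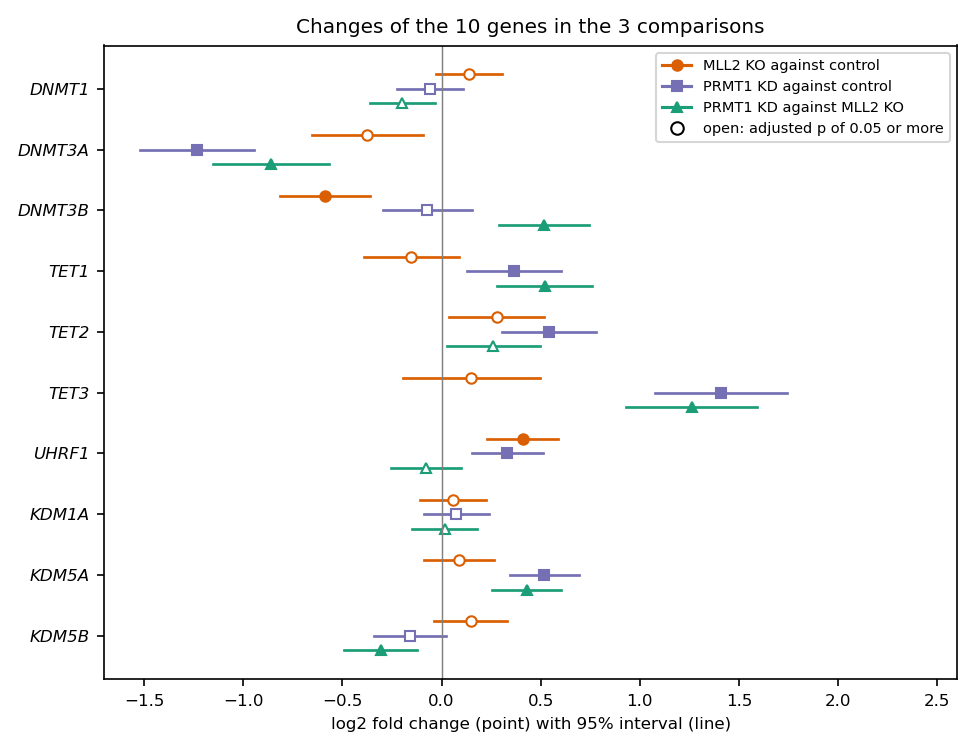
Log2 fold change (point) and 95% interval (line) of each of the 10 genes in MLL2 KO against control, PRMT1 KD against control and PRMT1 KD against MLL2 KO, with filled points where the adjusted p was under 0.05. TET3 at 1.41 and DNMT3A at -1.23 in PRMT1 KD against control lie farthest from 0, and the KDM1A intervals cross 0 in all 3 comparisons.

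The TET genes were higher after PRMT1 knockdown, with the widest change in TET3, the TET enzyme of the oocyte and early embryo. TET3 had 17.8 and 15.5 CPM in the MLL2 KO libraries, 32.3 and 47.4 CPM in the PRMT1 KD libraries and 15.3 and 14.7 CPM in the control libraries. Both knockdown libraries were above all others, and they differed from each other by 1.47-fold. The lower knockout library lay close to the higher control library. In PRMT1 KD cells TET3 had a log2 fold change of 1.41 ± 0.16, 2.66-fold, with an adjusted p of 3.81e-07 by edgeR's quasi-likelihood test, and it lay between 1.11 and 1.65 over the alternatives. The knockout value for TET3 was 0.15 ± 0.17, with a 95% interval of -0.19 to 0.49 and an adjusted p of 0.569.

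TET2, the TET gene often mutated in blood cancers, had 37.0 and 40.3 CPM in the MLL2 KO libraries, 42.7 and 49.9 CPM in the PRMT1 KD libraries and 31.8 and 31.9 CPM in the control libraries. The groups did not overlap, with PRMT1 KD highest, MLL2 KO next and control lowest. The log2 fold change of TET2 was 0.54 ± 0.11 in PRMT1 KD cells (adjusted p = 5.32e-04, edgeR's quasi-likelihood test) and 0.28 ± 0.11 in MLL2 KO cells (adjusted p = 0.0867). TET2 has 16474 nt of summed exon. With exon length modelled its knockdown value was 0.24, with an adjusted p of 0.0594 by edgeR, so the call did not hold. The knockout value passed under 4 of 15 alternatives.

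TET1, which is active in embryonic stem cells and carries a CXXC domain for unmethylated CpG, had 39.6 and 43.7 CPM in the MLL2 KO libraries, 52.7 and 66.5 CPM in the PRMT1 KD libraries and 46.3 and 46.3 CPM in the control libraries. The knockdown libraries were highest and the knockout libraries lay just below control. For TET1 the log2 fold change was 0.37 ± 0.11 in PRMT1 KD cells (adjusted p = 0.0113, edgeR's quasi-likelihood test) and -0.15 ± 0.12 in MLL2 KO cells (adjusted p = 0.379). The knockdown call for TET1 was lost without the second knockdown library, where the value was 0.19 (adjusted p = 0.21, edgeR), and without either control library, where it was 0.36 (adjusted p = 0.07 without the first and 0.0714 without the second). It was also lost with exon length modelled, at 0.23 (adjusted p = 0.0683, edgeR). Of the summed TET transcripts per kb, TET3 made up 18.5% and 15.3% in MLL2 KO, 24.6% and 27.9% in PRMT1 KD and 15.6% and 15.1% in control libraries. TET1 remained the largest part in each library, from 50.1% to 60.6%.

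Of the H3K4 demethylases, KDM5A changed after PRMT1 knockdown and KDM1A did not pass in any comparison. KDM5A removes trimethylation and dimethylation of H3K4, and had 164 and 169 CPM in the MLL2 KO libraries, 214 and 235 CPM in the PRMT1 KD libraries and 163 and 151 CPM in the control libraries. Both knockdown libraries lay above all others. The log2 fold change of KDM5A was 0.52 ± 0.08 in PRMT1 KD cells, 1.43-fold, with an adjusted p of 3.23e-05 by edgeR's quasi-likelihood test. With exon length modelled it was 0.32, and with GC content and exon length modelled together 0.28, and both passed. The knockout value for KDM5A was 0.09 ± 0.08 (adjusted p = 0.503, edgeR).

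KDM5B, its paralog with the same substrate, had 139 and 153 CPM in the MLL2 KO libraries, 117 and 119 CPM in the PRMT1 KD libraries and 139 and 124 CPM in the control libraries. The knockdown libraries were the lowest, and the knockout libraries overlapped control. Neither difference from control passed, at 0.15 ± 0.09 in MLL2 KO cells (adjusted p = 0.251, edgeR's quasi-likelihood test) and -0.16 ± 0.09 in PRMT1 KD cells (adjusted p = 0.146). KDM5B has the longest summed exon length of the 10 genes, 24899 nt, and with exon length modelled its knockdown value was -0.54 with an adjusted p of 2.92e-05. The ratio of KDM5A to KDM5B per kb was 2.45 and 2.28 in MLL2 KO, 3.78 and 4.08 in PRMT1 KD and 2.42 and 2.51 in control libraries. KDM1A, which removes dimethylation and monomethylation of H3K4, had 389 and 381 CPM in the MLL2 KO libraries, 403 and 377 CPM in the PRMT1 KD libraries and 377 and 363 CPM in the control libraries. For KDM1A the log2 fold change was 0.06 ± 0.08 in the knockout, with a 95% interval of -0.11 to 0.22, and 0.08 ± 0.08 in the knockdown, with an interval of -0.09 to 0.24. Both intervals hold 0, and KDM1A passed under none of the 15 alternatives in any of the 3 comparisons.

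Set directly against each other, PRMT1 KD cells had 4 of the 10 genes higher than MLL2 KO cells and 2 lower, where 40.7% of all genes passed (19.4% higher and 21.4% lower). The median over the 10 was 0.14, beside 0.01 over all genes. The higher genes were TET3 at 1.26 ± 0.16, TET1 at 0.52 ± 0.11, DNMT3B at 0.52 ± 0.11 and KDM5A at 0.43 ± 0.08 (log2 fold change ± SE). DNMT3A was lower, at -0.86 ± 0.14 with an adjusted p of 4.80e-05 by edgeR's quasi-likelihood test. KDM5B was lower at -0.31 ± 0.09 (adjusted p = 0.00805, edgeR), but not without the second knockout library, where it was -0.24 (adjusted p = 0.153), and with exon length modelled it was -0.70. With exon length modelled KDM5A was 0.23, and without the second knockdown library TET1 was 0.34, both still past the threshold. UHRF1, higher than control in both groups, differed between them by -0.08 ± 0.09, with a 95% interval of -0.26 to 0.10. DNMT1 (-0.20 ± 0.08, adjusted p = 0.0539) and TET2 (0.26 ± 0.11, adjusted p = 0.0709) did not pass the edgeR test, though DNMT1 passed under 6 of 15 alternatives. TET2 passed under 2 and changed sign under 2 others, at -0.05 with exon length modelled and -0.06 with GC content as well.

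Exon length moved with the knockdown across the whole transcriptome, and 7 of the 10 genes have over 8000 nt of summed exon. That length covers all annotated exons of a gene, so values with exon length modelled depend on the annotation too. The median log2 fold change of PRMT1 KD against control over all genes of a length class was -0.45 under 1000 nt, -0.37 from 1000 to 2000 nt, -0.15 from 2000 to 4000 nt, 0.01 from 4000 to 8000 nt, 0.13 from 8000 to 16000 nt and 0.36 over 16000 nt. The second knockdown library differed from the first in the same direction, by a median of -0.22 in the shortest class and 0.19 in the longest. The class medians in MLL2 KO cells lay between -0.05 and 0.04. TET1 (9612 nt), TET3 (12271 nt), KDM5A (12029 nt) and TET2 (16474 nt) are in the classes with positive medians, and so are DNMT3A (12020 nt), which fell, and KDM5B. With a spline on exon length in each library, TET3 at 1.20, UHRF1 and KDM5A still passed as higher, DNMT3A at -1.43, KDM5B and DNMT1 passed as lower, and TET1 and TET2 did not pass. The part of library preparation or RNA quality in the length trend was not tested.

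**Figure D4:**
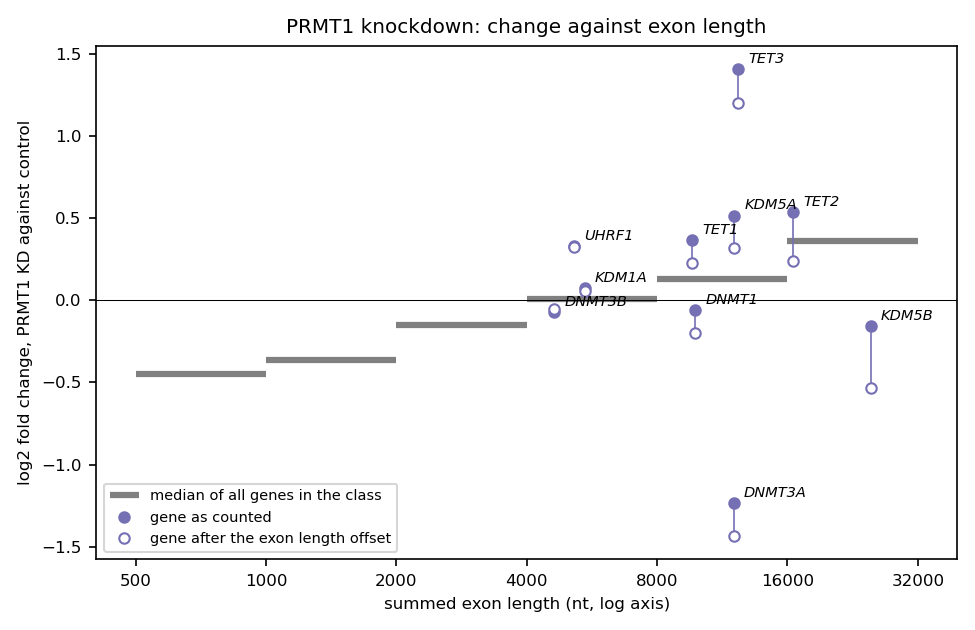
Log2 fold change in PRMT1 KD against control over summed exon length (nt, log axis), with filled points for the 10 genes as counted, open points after the exon length offset, and grey bars for the median of all genes in each length class (the outer classes, under 1000 and over 16000 nt, are open-ended and drawn to 500 and 32000 nt). TET3 at 1.20 and DNMT3A at -1.43 stay far from the bars after the offset, and KDM5B moves to -0.54.

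The partners of these enzymes were read from 9 gene lists, whose counts stand beside the 22.4% of all genes that passed in MLL2 KO and the 47.4% in PRMT1 KD cells. Of 8 tested cofactors of DNA methylation, PRMT1 KD cells had 2 higher and 3 lower, beside 22.2% higher and 25.3% lower over all genes. HELLS, the remodeller that opens heterochromatin to methylation, rose by 0.87 ± 0.09, and USP7, a deubiquitinase that stabilises DNMT1 and UHRF1, by 0.58 ± 0.08 (log2 fold change ± SE). SETDB1, an H3K9 methyltransferase that acts with TRIM28, had -0.65 ± 0.09, the replication clamp PCNA -0.56 ± 0.09 and CDCA7, the HELLS activator, -0.48 ± 0.09. The list median was 0.10, beside -0.04 over all genes. Among the same genes in MLL2 KO cells, USP7 (0.31 ± 0.08) and TRIM28 (0.25 ± 0.08) were higher and CDCA7 lower (-0.33 ± 0.09), with a list median of 0.13, beside 22.4% of all genes passing. That count of 3 ran both ways: it was 0 without either control library or the first knockout library, 1 without the second knockout library, and 6 without either knockdown library or in a fit of only the 2 groups.

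Of 8 genes listed as readers of methylated CpG, PRMT1 KD cells had 2 higher and 1 lower, beside 47.4% of all genes passing. The list median was 0.12. ZBTB4 rose by 0.94 ± 0.15. The lower gene, MBD3 at -0.42 ± 0.09, is a NuRD subunit that in mammals does not bind methylated CpG selectively. With exon length modelled 6 of the list passed, and with GC content as well 5. MLL2 KO cells had MBD2 higher at 0.53 ± 0.13, with a list median of 0.07, and that call was lost without the first control or the first knockout library. Of 6 CXXC proteins that bind unmethylated CpG, KDM2A, an H3K36 demethylase, rose in both groups, by 0.62 ± 0.10 in MLL2 KO and 1.48 ± 0.10 in PRMT1 KD cells. Its relative FBXL19 fell by 0.59 ± 0.09 in PRMT1 KD cells, on the log2 scale. The other CXXC genes did not pass, and the list medians were 0.13 in the knockout and -0.15 in the knockdown. The knockdown count of 2 was 4 without the first knockdown library and 5 with GC content and exon length modelled.

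The list of 15 genes for removing oxidised cytosine and supplying the TET cosubstrate 2-oxoglutarate was divided. PRMT1 KD cells had 5 higher and 5 lower, beside 47.4% of all genes passing, with a median of 0.04. The isocitrate dehydrogenases, which make 2-oxoglutarate, were lower, IDH2 at -1.65 ± 0.10 and IDH1 at -0.78 ± 0.09, as was the DNA glycosylase NEIL1 at -1.66 ± 0.16. GADD45A, a stress gene linked to demethylation, rose by 0.70 ± 0.12, and OGT, which binds TET proteins, by 0.33 ± 0.08. The OGT call was lost with GC content and exon length modelled. MLL2 KO cells had 3 higher and 2 lower, beside 22.4% of all genes, with a median of -0.06. TDG, the glycosylase that excises the oxidised bases, rose by 0.70 ± 0.09, and IDH2 was lower at -0.63 ± 0.09. IDH1 (0.33 ± 0.09), APEX1 (0.30 ± 0.08) and NEIL1 (-0.45 ± 0.16) also passed, but of this list 2 genes passed when any 1 control or knockout library was left out.

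Of 14 tested partners of KDM1A, MLL2 KO cells had 0 higher and 4 lower, with a median of -0.13, where 10.3% of all genes were higher and 12.1% lower. RCOR2, a CoREST scaffold, had -2.26 ± 0.33, GFI1, a repressor that recruits KDM1A, -1.68 ± 0.18, and the BRAF35-like subunit HMG20B -0.62 ± 0.09. RCOR2 had few counts: 31 and 34 in the MLL2 KO libraries, 43 and 77 in PRMT1 KD and 134 and 167 in control. PRMT1 KD cells had 5 higher and 4 lower, beside 47.4% of all genes passing, with a median of 0.12. GSE1 rose by 1.03 ± 0.15, the main scaffold RCOR1 by 0.76 ± 0.13 and SFMBT1 by 0.52 ± 0.10, while HMG20B had -1.41 ± 0.09, RCOR2 -1.44 ± 0.31 and HDAC2 -0.23 ± 0.08. The HDAC2 call was lost without any 1 control or knockout library. Of the 3 tested H3K4 demethylases outside the 10 genes, KDM1B, the KDM1A paralog needed for oocyte imprints in mouse, was lower in PRMT1 KD cells at -0.79 ± 0.11, and none passed in MLL2 KO cells, where the list median was -0.19. The knockdown median was -0.21, and a further gene of that list passed there with exon length modelled or without the first knockdown library.

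Of 17 other JmjC proteins, PRMT1 KD cells had 5 higher and 3 lower, with a median of 0.10, and these 8 of 17 are near the 47.4% of all genes that passed. Beside KDM2A, JMJD1C rose by 1.04 ± 0.10 and the H3K27 demethylase KDM6A by 0.90 ± 0.09. KDM4A (-0.38 ± 0.10), KDM7A (-0.27 ± 0.10) and PHF2 (-0.30 ± 0.11) were lower, and these 3 calls were lost without the second control library, where the list had 5 higher and 0 lower. Over the 15 alternatives the PHF2 call was lost under 9, that of KDM7A under 5 and that of KDM4A under 1. MLL2 KO cells had 2 higher, KDM2A and KDM6A (0.32 ± 0.09), and 0 lower, with a median of -0.04. The KDM6A call was lost without the second control or the first knockout library.

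Germline genes, which promoter methylation is known to silence in somatic cells, were mostly not expressed. Of 20, 4 could be tested and 16 had at most 13 counts in any library, 6 of them 0 in all. In PRMT1 KD cells TEX14, needed for germ cell bridges, rose by 2.30 ± 0.26, and TEX15 was lower at -0.28 ± 0.11, with a median of 0.39 over the 4. The TEX15 call was lost under 9 of 15 alternatives, among them those without either control library, and its value lay between -0.53 and -0.18. None of the 4 passed in MLL2 KO cells, where the median was -0.02, although 1 passed there under 10 of 15 alternatives. Of 20 S phase genes, which cycle with DNMT1 and UHRF1, MLL2 KO cells had 5 higher and 2 lower, beside 22.4% of all genes passing, with a median of 0.11. FEN1 rose by 0.47 ± 0.08, RRM2 by 0.43 ± 0.08 and CDC6 by 0.37 ± 0.08, and CDT1 (-0.42 ± 0.11) and TYMS (-0.32 ± 0.11) were lower. The knockout count of 7 was 3 or 4 when any 1 control or knockout library was left out, 11 without either knockdown library and 12 in a fit of only the 2 groups. PRMT1 KD cells had 5 higher and 8 lower, beside 47.4% of all genes passing, with a median of -0.16. MCM5 rose by 0.69 ± 0.08, RPA2 by 0.55 ± 0.09 and POLA1 by 0.43 ± 0.08, while CCNE2 had -0.91 ± 0.14, CCNE1 -0.84 ± 0.13 and CDC6 -0.56 ± 0.08. That count of 13 moved both up and down when 1 library was left out. Whether the share of cells in S phase bears on DNMT1 or UHRF1 was not tested.

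Between the perturbed groups, PRMT1 KD cells had 8 of 14 CoREST genes higher and 1 lower than MLL2 KO cells, with a list median of 0.51 beside 0.01 over all genes, of which 19.4% were higher and 21.4% lower. GFI1 was higher in the knockdown than in the knockout by 1.37 ± 0.18, and HMG20B lower at -0.79 ± 0.09. Against control, GFI1 was lower in the knockout and did not pass in the knockdown, at -0.31 ± 0.17 (adjusted p = 0.141, edgeR's quasi-likelihood test). Against control, 5 genes of this list passed as higher in the knockdown. Of the 17 JmjC genes 7 were higher and 1 lower, with a median of 0.22, and without the second knockout library 5 of the list passed in all. Beside 40.7% of all genes passing, the 20 S phase genes had 3 higher and 9 lower (median -0.06), and the 15 genes of the oxidised cytosine list 4 higher and 7 lower (median -0.02). The 8 cofactors and the 8 listed readers, MBD3 included, each had 2 higher and 2 lower (medians -0.09 and -0.05). The 6 CXXC proteins had 1 higher and 2 lower (median -0.14). The 3 other H3K4 demethylases and the 4 germline genes each had 1 higher and 1 lower (medians -0.24 and 0.58).

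**Figure D5:**
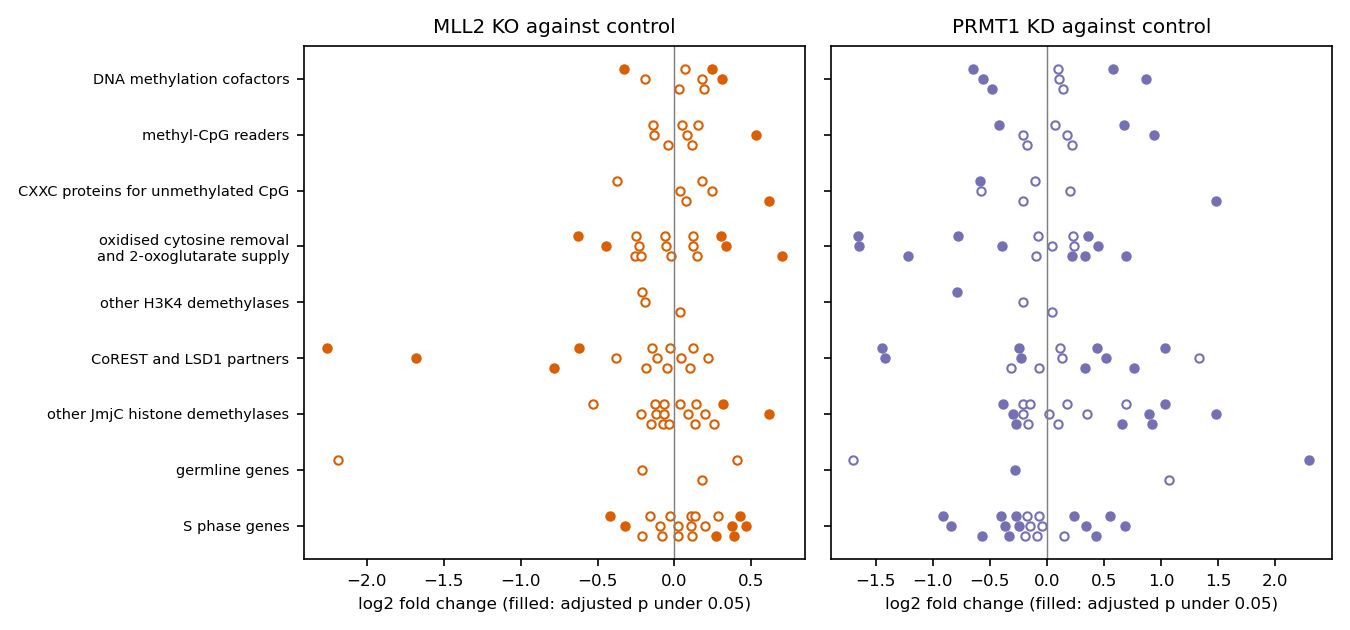
Log2 fold change of each tested gene in the 9 lists, in MLL2 KO against control (left) and PRMT1 KD against control (right), 1 point per gene and filled where the adjusted p was under 0.05; the horizontal scales differ. The CoREST row has 4 filled points in the knockout, all below 0, and 9 in the knockdown, on both sides of 0.

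Over the 6 libraries, the gene with the pattern most like a member's was sought by Euclidean distance between centred log2 CPM values among 9669 genes with a mean of at least 10 CPM. The nearest to UHRF1 were SNHG17 (distance 0.0541) and E2F1 (0.0722). The nearest to DNMT3A were FSD1 (0.0902) and ADCY3 (0.178), and to DNMT3B ARHGAP22 (0.107) and DZIP1L (0.181). DNMT1 was nearest to NLN (0.0655) and ELAVL1 (0.0670), TET1 to RELA (0.0886) and MLLT10 (0.0971), and TET2 to DIDO1 (0.0490) and BAZ2B (0.0905). The nearest named gene to TET3 was HIF1AN, at 0.195, the widest such gap of the 10. KDM1A was nearest to PHF6 (0.0459) and JADE1 (0.0488), KDM5A to ERP44 (0.0434) and ERCC6L2 (0.0726), and KDM5B to GYS1 (0.0797) and MAP4K4 (0.0830). With 3 groups of 2 libraries many genes share a pattern, and a small distance says no more than that.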

How the data were processed

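Per the labels, RNA was extracted with TRIzol and libraries made with a TruSeq stranded kit for total RNA. The deposited values are raw counts of reads per gene, which the authors made with featureCounts from paired reads on the GENCODE 34 annotation, reverse-stranded, with a minimum mapping quality of 10, per the file headers. The headers give featureCounts 2.0.1 and the submitters' processing notes 1.5.0-p1, and the notes list STAR 2.7.5a, Trim Galore 0.6.10 and hg38. The headers also name the alignments WTshNT (control), MKshNT (knockout) and WTshPR (knockdown), which the labels do not explain. From the counts, genes were filtered with filterByExpr, scaled with TMM and fitted with edgeR 4.0.16 (quasi-likelihood test, R 4.3.3) over all 6 libraries with a term for each group, which left 3 residual degrees of freedom. The 10 genes and the lists were chosen with earlier results of these data known. Named genes are the 10, the targeted genes, up to 3 passing genes per list, direction and comparison with the smallest adjusted p, and the 2 nearest genes by pattern. Some genes that this rule names are not reported here. Alternatives were RLE and upper quartile scaling, DESeq2 1.42.0, 2 other count filters, a fit of only the groups compared, a replicate block, an offset for exon length, and each library left out. An offset for GC content and exon length was added after seeing the data. On data simulated from the libraries, edgeR recovered 77.2% of 1.5-fold and 98.6% of 2-fold changes for knockout against control, 64.4% and 97.3% for knockdown against control, and 63.9% and 89.1% for knockdown against knockout. Libraries of a group were not duplicates of each other. The range of library depths is given with the results. Having only 2 libraries per group limits the precision.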

Additional observations from a re-analysis of the deposited data

How the results depend on the processing

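Of 450 values of the 10 genes under the 15 alternatives, 407 kept their direction and side of the threshold, 26 newly passed, 10 no longer passed and 7 changed sign. In MLL2 KO against control, 2 of the 10 genes passed, against 5 in a fit of only the 2 groups and 4 with the exon length offset. Leaving out 1 library gave 1 to 5 there, and 1908 to 5492 genes in all, against 3941. Dropping control replicate 1 gave 2157 genes, control replicate 2 gave 1908, knockout replicate 1 gave 2184 and knockout replicate 2 gave 2255. The sign changes were in values that did not pass. TET2 in PRMT1 KD against MLL2 KO was 0.26 as reported, -0.049 with the exon length offset and -0.061 with GC content added. KDM1A in the same comparison was -0.00022 and -0.0062 under those offsets and lay between -0.042 and 0.063 with 1 library left out. DNMT3B in PRMT1 KD against control lay between -0.16 and 0.0021 with 1 library left out. KMT2B in MLL2 KO against control was -0.013 with upper quartile scaling and lay between -0.054 and 0.10 with 1 library left out. Beyond the construction of the offsets and the smaller samples, the cause was not tested.

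The labels give no batch that pairs libraries by replicate number, and the main fit has no replicate term. The differences between replicates 2 and 1 correlated across genes by 0.0618 (control with knockout), 0.0441 (control with knockdown) and 0.195 (knockout with knockdown). These values do not settle whether libraries of 1 replicate number were handled together. With the replicate block, 3 of the 10 genes and 4512 genes in all passed in knockout against control. The block gave 6 and 8710 in knockdown against control, and 7 and 7529 in knockdown against knockout. With 2 libraries per group, changes of 1.5-fold and below can be missed, and some of 2-fold. The simulation recovered 63.9% to 77.2% of changes at 1.5-fold and 89.1% to 98.6% at 2-fold. Its changed genes were drawn only from those with an average log2 CPM over 2.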
